A study of Homo sapiens with 6 samples.

Results

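The melanoma antigen (MAGE) family was examined on Illumina expression arrays of a human chondrosarcoma cell line and a human chondrocyte cell line. Members were all array probes whose platform gene symbol starts with MAGE, which gave 33 of the 20046 genes on the array and 65 of its 47231 probes. Type I (MAGEA, MAGEB and MAGEC) held 24 genes with 47 probes, and type II (MAGED, MAGEE, MAGEF, MAGEH and MAGEL) held 9 genes with 18 probes. The JJ012 group consisted of 3 arrays of the chondrosarcoma line JJ012, and the control group of 3 arrays of the chondrocyte line C28. The labels name no drug or genetic change for either line. Cells were plated at 5000000 cells per dish and were lysed after 24 hours of culture for extraction of total RNA. Each group is a single cell line, and the labels do not say whether its 3 arrays came from separate cultures, so every p-value reflects array-to-array spread within a line and that spread may be technical only.

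MAGE proteins share a MAGE homology domain, and several of them bind RING-type ubiquitin ligases. Type I genes lie in clusters on the X chromosome and are known as cancer-testis antigens. In tissues outside the germ line their promoters are methylated and the genes are normally silent, but many tumours express them. Type II genes are expressed in many normal tissues.

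A probe was called detected on an array when its detection value exceeded 0.99, which is a detection p under 0.01, and measured when it was detected on all 3 arrays of at least 1 line. JJ012 arrays detected 17888, 17826 and 18378 probes, and C28 arrays 18922, 19332 and 19301. Of 15 chondrocyte markers only SOX9 and MATN3 were measured, and the cartilage matrix genes ACAN and COL2A1 were measured in neither line. JJ012 replicate 1 stood apart: over 79 probes outside the MAGE family that were bright in C28 and undetected on JJ012 replicate 2, it read a median of 11.1% of the C28 level (10th to 90th percentile 9.46% to 13.3%), against 2.64% on JJ012 replicate 3. These probes were picked after the arrays had been examined, and replicate 2 is low among them by selection. MAGEE1, MAGEF1, TRIM27 and EPCAM are given with and without this array.

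Part of the type I genes were detected in JJ012, and hardly any in C28. A probe was measured in JJ012 for 13 of the 24 type I genes (54.2%) and in C28 for 0 of them (0.0%). Over all 20046 genes on the array the shares were 50.3% in JJ012 and 54.0% in C28, so the type I share was near that of all genes in JJ012 and departed from it in C28. For type II, 6 of 9 genes (66.7%) were measured in JJ012 and 8 of 9 (88.9%) in C28. The map of detection calls shows both patterns probe by probe.

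**Figure D1:**
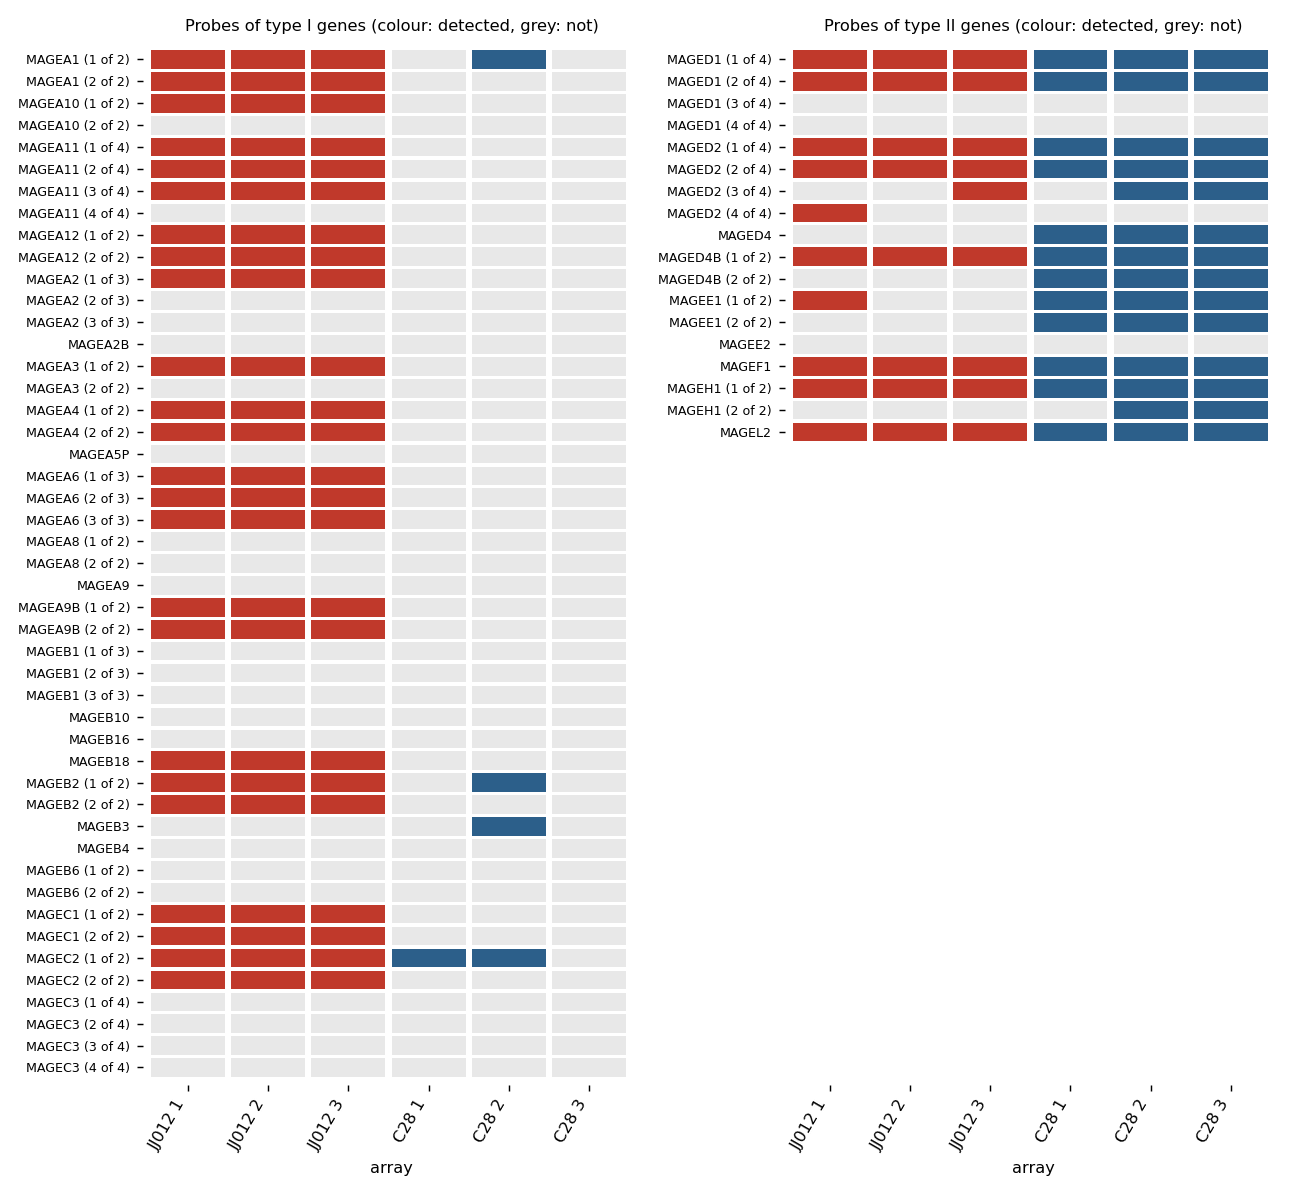
Detection of each MAGE probe (rows) on each array (columns, JJ012 then C28), with type I genes at left and type II genes at right; a coloured cell is a detected probe. The 24 measured type I probes are coloured on every JJ012 array, and 8 type II probes are coloured on all 6 arrays.

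By subfamily, 9 of 13 MAGEA genes, 2 of 8 MAGEB genes and 2 of 3 MAGEC genes were measured. The 11 type I genes without a measured probe were MAGEA2B, MAGEA5P, MAGEA8, MAGEA9, MAGEB1, MAGEB3, MAGEB4, MAGEB6, MAGEB10, MAGEB16 and MAGEC3, and their single detection was MAGEB3 on 1 C28 array. In type II, MAGEE2 was not measured. The detection threshold admitted MAGEA11, MAGEA4 and MAGED4 probes at 0.99351, and left out a second MAGEH1 probe at 0.98182, a MAGEB6 probe at 0.95714 and a MAGEA2 probe at 0.95455.

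The stretches upstream of the members were compared, because type I promoters are known to be controlled by methylation and by ETS-family activators, which bind sites with a GGAA or GGAT core. RefSeq windows of 300 bases (250 before to 50 after the transcript start, GRCh38.p14) matched 29 of the 33 genes. MAGEA1, MAGEA5P, MAGEA10 and MAGEH1 had none. Only the first listed start of a gene was used. RefSeq lists 5 starts for MAGEA4 and 2 for several others, among them MAGEA12 and MAGED1, and windows at the other starts were not searched. The 7-base motif GGATGTG, searched on both strands, was picked after the windows had been read, so its counts are a description. It stood in 10 of 11 windows of measured type I genes, in 4 of 10 windows of unmeasured type I genes, in 0 of 8 type II windows and in 4.3% of all 27305 promoter windows. Every MAGEA window held it, also those of the unmeasured MAGEA2B, MAGEA8 and MAGEA9, so within MAGEA it did not separate measured from unmeasured genes. Of the unmeasured MAGEB and MAGEC windows only that of MAGEB16 held it. Windows of related genes are not independent: MAGEA3 and MAGEA6 were identical over the window, as were MAGEA9B and MAGEA9, of which only MAGEA9B was measured. MAGEA9 with MAGEA9B and MAGEA2 with MAGEA2B are near-identical pairs. Their split into measured and unmeasured therefore holds for probes and may not hold for the genes. The motif CCGGAA was in 2 of 11, 1 of 10 and 2 of 8 windows of the same sets and in 17.6% of all. CpG dinucleotides numbered a median of 13 per window for measured type I genes, 10.5 for unmeasured type I genes, 11 for type II genes and 14 over all promoters.

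The following 120 bases run 5′ to 3′ from 110 before the start, with GGATGTG in capitals. They were chosen to show the motif in the MAGEA, MAGEB and MAGEC subfamilies, the measured type I gene without it (MAGEB18) and a pair of type II genes.
MAGEA3, chrX:152698684-152698803, plus strand: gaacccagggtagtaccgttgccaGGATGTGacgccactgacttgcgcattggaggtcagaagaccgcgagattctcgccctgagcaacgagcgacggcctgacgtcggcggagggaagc
MAGEA12, chrX:152733647-152733766, plus strand: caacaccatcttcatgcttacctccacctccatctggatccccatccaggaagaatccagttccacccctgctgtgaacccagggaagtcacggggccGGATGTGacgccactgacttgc
MAGEB2, chrX:30215453-30215572, plus strand: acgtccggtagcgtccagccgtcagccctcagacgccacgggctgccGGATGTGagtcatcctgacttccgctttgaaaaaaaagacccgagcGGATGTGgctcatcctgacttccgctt
MAGEC1, chrX:141903784-141903903, plus strand: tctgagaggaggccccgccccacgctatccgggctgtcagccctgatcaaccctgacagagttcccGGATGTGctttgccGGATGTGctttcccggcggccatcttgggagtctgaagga
MAGEC2, chrX:142205281-142205400, minus strand: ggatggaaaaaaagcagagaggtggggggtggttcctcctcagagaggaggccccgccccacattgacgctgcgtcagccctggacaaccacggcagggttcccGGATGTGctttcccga
MAGEB18, chrX:26138233-26138352, plus strand: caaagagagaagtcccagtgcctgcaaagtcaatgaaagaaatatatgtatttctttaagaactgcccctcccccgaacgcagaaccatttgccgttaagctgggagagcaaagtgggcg
MAGED1, chrX:51802966-51803085, plus strand: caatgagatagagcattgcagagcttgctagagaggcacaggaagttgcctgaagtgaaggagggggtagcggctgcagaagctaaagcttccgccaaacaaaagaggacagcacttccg
MAGEE1, chrX:76427600-76427719, plus strand: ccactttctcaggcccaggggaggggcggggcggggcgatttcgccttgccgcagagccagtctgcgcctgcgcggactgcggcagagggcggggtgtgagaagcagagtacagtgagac

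**Figure D2:**
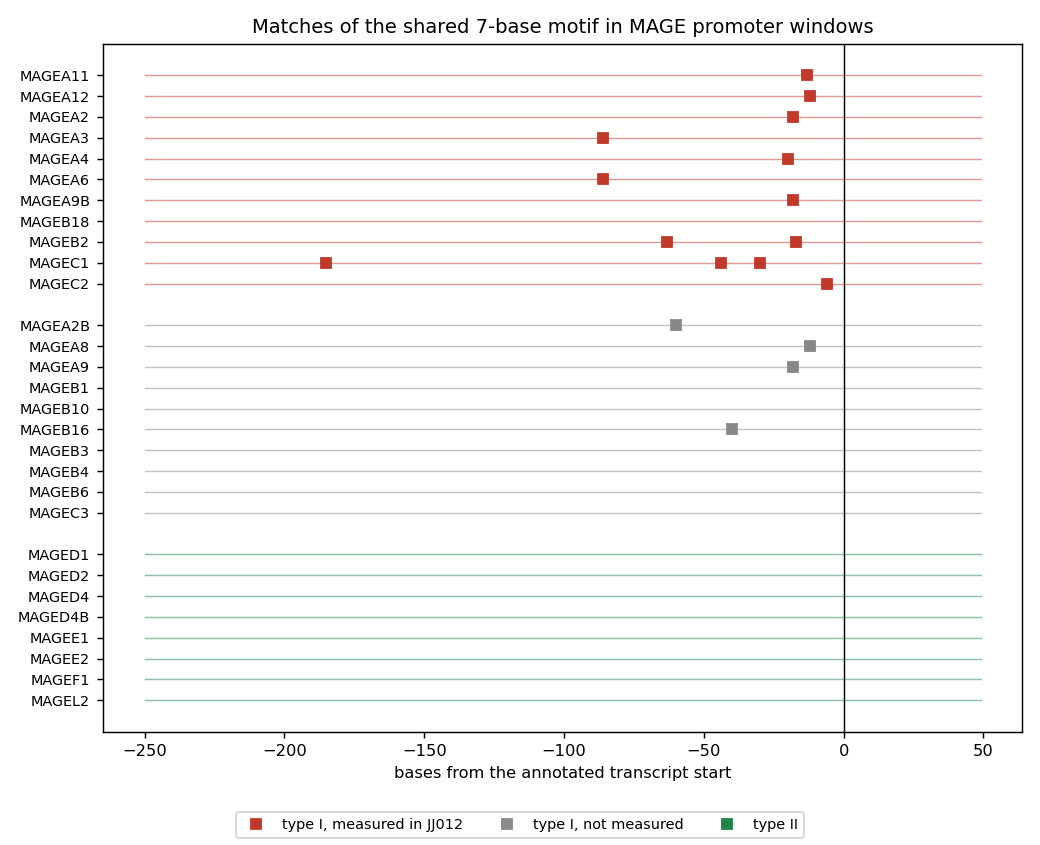
Position of GGATGTG matches (squares) along the RefSeq promoter window of each MAGE gene (rows), in bases from the annotated transcript start. In MAGEB2 the matches stand at −63 and −17, and no type II window holds one.

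Counted from the transcript start, matches stood at −185, −44 and −30 in MAGEC1, at −6 in MAGEC2 and at −12 in MAGEA12. MAGEA3 and MAGEA6 held theirs at −86, MAGEA4 at −20, MAGEA11 at −13, and MAGEA2 and MAGEA9B at −18. The arrays do not measure methylation or factor binding at these stretches.

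Levels below are normalized log2 signals, and changes are JJ012 minus C28. A call needs a limma adjusted p under 0.05 and at least a 2-fold change. Over all 19384 measured probes 13.9% were called higher in JJ012 and 15.9% lower, and over the 11515 measured genes, each read by its brightest measured probe, 13.7% were higher and 17.6% lower. All 13 measured type I genes and all 24 of their probes were called higher in JJ012. Each had entered through its JJ012 arrays alone, so a higher JJ012 reading was a condition of entry and the count supports nothing by itself. The median change of the 13 genes was 4.76 on the log2 scale (1.58 to 7.10), and the filter fixed its direction; without background correction it was 3.37, and over all 24 type I genes with no filter it was 1.78. Over all measured genes the median was −0.04. An array averages a whole culture, so fewer cells with a transcript and less RNA per cell cannot be told apart.

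MAGEC2, a partner of the ubiquitin ligase TRIM28, read 12.65, 12.75 and 12.70 in JJ012, against 5.89, 6.00 and 4.92 in C28. The groups did not overlap, although 2 of the 3 C28 arrays detected it. The fitted change was 7.10 (SE 0.26, adjusted p = 3.59e-07), with the third C28 array at background, and the second MAGEC2 probe, on no C28 array, gave at least 30.1-fold. MAGEC1 read 10.47, 11.02 and 10.74 in JJ012, against 4.68, 5.36 and 5.12 in C28, where no array detected it. It was at least 38.5-fold higher in JJ012 (adjusted p = 3.21e-07), and its other probe at least 40.4-fold. These bounds set the JJ012 mean against the lowest signal that counted as detected.

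MAGEB2, a type I gene of the Xp cluster, read 11.66, 12 and 11.89 in JJ012, against 5.02, 5.65 and 5.44 in C28. C28 replicate 2 alone detected it, so the fitted change of 6.48 (SE 0.17, adjusted p = 8.41e-08) is set mostly against background; without that array it was at least 81.8-fold higher in JJ012. Its other probe was at least 49.3-fold higher in JJ012. MAGEB18 read 6.84, 6.82 and 6.53 in JJ012, against 4.93, 4.63 and 4.69 in C28, where no array detected it, and was at least 2.38-fold higher in JJ012 (adjusted p = 5.26e-06).

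Within MAGEA, MAGEA1, the founding member of the family, read 12.27, 12.17 and 12.07 in JJ012, against 5.05, 5.48 and 5.05 in C28. A single C28 array, replicate 2, detected it, so the fitted change of 6.97 (SE 0.14, adjusted p = 2.93e-08) is also set mostly against background, and without background correction it was 5.58. Without that array MAGEA1 was at least 102-fold higher in JJ012. Its other probe was at least 22.5-fold higher in JJ012. MAGEA12 read 10.81, 10.75 and 10.78 in JJ012, against 4.66, 4.65 and 4.59 in C28, at least 39.3-fold higher. MAGEA6, which with MAGEA3 is a known partner of TRIM28, read 10.58, 10.41 and 10.45 in JJ012, against 5.04, 5.35 and 4.92 in C28, at least 32-fold higher. MAGEA3 read 9.54, 9.65 and 9.50 in JJ012, against 5.20, 4.89 and 4.49 in C28, at least 16.9-fold higher. A second MAGEA3 probe was detected on no array, at 4.43, 4.42 and 4.51 in JJ012 and 4.57, 4.71 and 4.31 in C28. For the brightest measured probe of each of these genes the lowest JJ012 array lay far above the highest C28 array.

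MAGEA9B read 9.83, 9.92 and 9.72 in JJ012, against 5.09, 5.14 and 4.96 in C28, at least 20.3-fold higher. MAGEA4 read 8.06, 7.79 and 7.86 in JJ012, against 4.88, 4.66 and 4.58 in C28, at least 5.36-fold higher. No C28 array detected either gene. MAGEA11, known as a coregulator of the androgen receptor, read 7.53, 7.77 and 7.84 in JJ012, against 4.52, 4.49 and 4.69 in C28, at least 4.70-fold higher. MAGEA2 read 7.14, 7.15 and 7.24 in JJ012, against 4.54, 4.38 and 4.38 in C28, at least 3.23-fold higher. These groups lay apart as well, with smaller gaps than in MAGEA1. MAGEA10 read 6.31, 6.59 and 6.22 in JJ012, against 5.00, 4.76 and 4.62 in C28, at least 1.86-fold higher (adjusted p = 2.49e-05). The other measured probes of MAGEA4, MAGEA6, MAGEA9B, MAGEA11 and MAGEA12 were undetected in C28 as well. Their bounds were at least 1.29-fold for MAGEA4, 2.11- and 1.6-fold for MAGEA11, 5.37-fold for MAGEA9B, 8.31-fold for MAGEA12, and 19.9- and 8.26-fold for MAGEA6. Further probes of MAGEA2, MAGEA10 and MAGEA11 were detected on no array. MAGEA3 with MAGEA6, MAGEA2 with MAGEA2B, and MAGEA9 with MAGEA9B are near-identical pairs, and a probe may read more than its named gene. Without background correction the fitted change of MAGEA10 was 0.79, under the 2-fold limit.

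**Figure D3:**
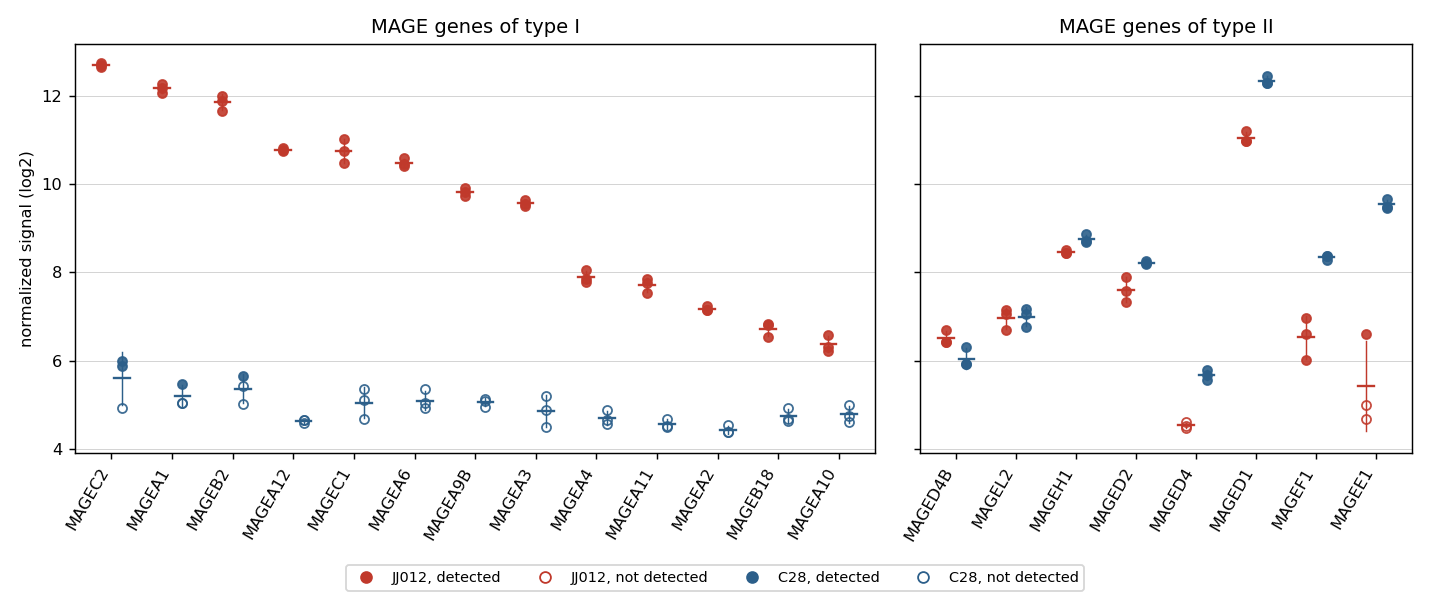
Normalized log2 signal of the measured MAGE genes on each array, JJ012 (red) left of C28 (blue) for each gene; filled points were detected, bars are mean and SD over 3 arrays. JJ012 arrays of MAGEC2 lie between 12.65 and 12.75, against 4.92 to 6.00 in C28.

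The C28 detections of type I probes were weak. Over the 9 type I probes whose JJ012 level was above 10 on the log2 scale, C28 arrays 1, 2 and 3 read medians of 0.565%, 0.721% and 0.529% of the JJ012 level and detected 1, 3 and 0 of the 9. Over non-MAGE probes bright in JJ012 and undetected on the other C28 arrays, the medians were 0.892%, 0.862% and 0.7%, and 1 of 32, 11 of 42 and 1 of 32 probes were detected. Whether these signals are C28 transcripts was not tested.

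Type II genes differed between themselves, and none was called higher in JJ012. Of the 8 measured, 4 were called lower and 4 were not called, where 13.7% of all measured genes were higher and 17.6% lower. The median change was −0.88 (−4.11 to 0.46), against −0.04 over all measured genes. Among the lower genes, MAGED4 and MAGEE1 entered through C28 alone, so a lower JJ012 reading was a condition of their entry. Of the 12 measured type II probes 7 were called lower, where 15.9% of all measured probes were lower. Among these 7, the MAGED4 probe, the MAGEE1 probes and the dimmer MAGED4B probe entered through C28 alone. By brightest measured probe, the JJ012 values of 6 type II genes lay wholly below those of C28, of 1 wholly above and of 1 overlapping. Of all measured genes 39.9% lay wholly below and 36.3% wholly above. For type I the JJ012 values of all 13 lay above, which the filter favoured. Of the 6 type II genes detected on all 6 arrays, for which the filter set no direction, 2 were lower and 0 higher, where 11.1% of the 9389 such genes were lower and 10.8% higher.

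MAGED1, an adaptor known to bind the neurotrophin receptor p75, read 10.97, 11.20 and 10.98 in JJ012, against 12.45, 12.28 and 12.29 in C28. It was detected on all arrays and changed by −1.29 (SE 0.11, adjusted p = 1.82e-05), and its other measured probe changed by −1.32. Further MAGED1 probes were detected on no array. MAGEF1, which acts with a ubiquitin ligase on iron-sulfur cluster assembly, read 6.97, 6.01 and 6.61 in JJ012, against 8.37, 8.37 and 8.28 in C28, and fell by 1.81 (SE 0.22, adjusted p = 1.34e-04). Its JJ012 arrays were at 35.5%, 15.7% and 26.4% of the C28 mean, with replicate 1 highest. Without that array the change was −2.03.

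MAGEE1, a type II gene with a pair of MAGE domains, showed the largest fall. It read 6.60, 4.69 and 5.01 in JJ012, against 9.67, 9.49 and 9.46 in C28, a change of −4.11 (SE 0.43, adjusted p = 6.19e-05). In JJ012 it was detected on replicate 1 alone, at 11.1% of the C28 mean, and replicates 2 and 3 read 1.35% and 2.22%. The median of replicate 1 over the 79 reference probes was also 11.1%. Whether these signals share a source was not tested. Without replicate 1 MAGEE1 was at least 14.5-fold lower in JJ012 and the fitted change was −4.69. The other MAGEE1 probe was undetected throughout JJ012 and lower there by at least 2.10-fold. Its JJ012 arrays read 12%, 10.5% and 13.6% of the C28 mean, so replicate 1 was not highest.

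MAGED4 read 4.61, 4.52 and 4.48 in JJ012, where no array detected it, against 5.80, 5.57 and 5.68 in C28. The fit called it lower (−1.15, adjusted p = 2.24e-05), but no fold bound could be set and without background correction the change was −0.65. It was the only type II gene measured in C28 and on no JJ012 array, a state of 7.02% of measured genes. The opposite state, measured in JJ012 and on no C28 array, held for 3.90% of measured genes and for 10 of the 13 measured type I genes, which could enter only through JJ012, so nothing is read from that count. MAGED4B, a near-identical copy, gave probes that disagreed: the brighter read 6.42, 6.70 and 6.42 in JJ012, against 6.32, 5.92 and 5.92 in C28 (0.46, adjusted p = 0.0197, not called), and the dimmer was at least 1.74-fold lower in JJ012. Its direction is therefore uncertain.

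The remaining type II genes were not called. MAGED2, known for its part in renal salt reabsorption, read 7.59, 7.89 and 7.34 in JJ012, against 8.25, 8.19 and 8.22 in C28. The change was −0.61 (adjusted p = 0.00517), short of the 2-fold limit. On its other measured probe the change was −0.24 (adjusted p = 0.171) and the groups overlapped. They overlapped on the unmeasured MAGED2 probes too. MAGEH1 read 8.50, 8.44 and 8.44 in JJ012, against 8.86, 8.71 and 8.68 in C28, a change of −0.29 (adjusted p = 0.0253). MAGEL2, an imprinted gene that acts in endosomal recycling, read 6.69, 7.14 and 7.06 in JJ012, against 7.06, 7.18 and 6.77 in C28, and its groups overlapped (−0.04, SE 0.16, adjusted p = 0.832).

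**Figure D4:**
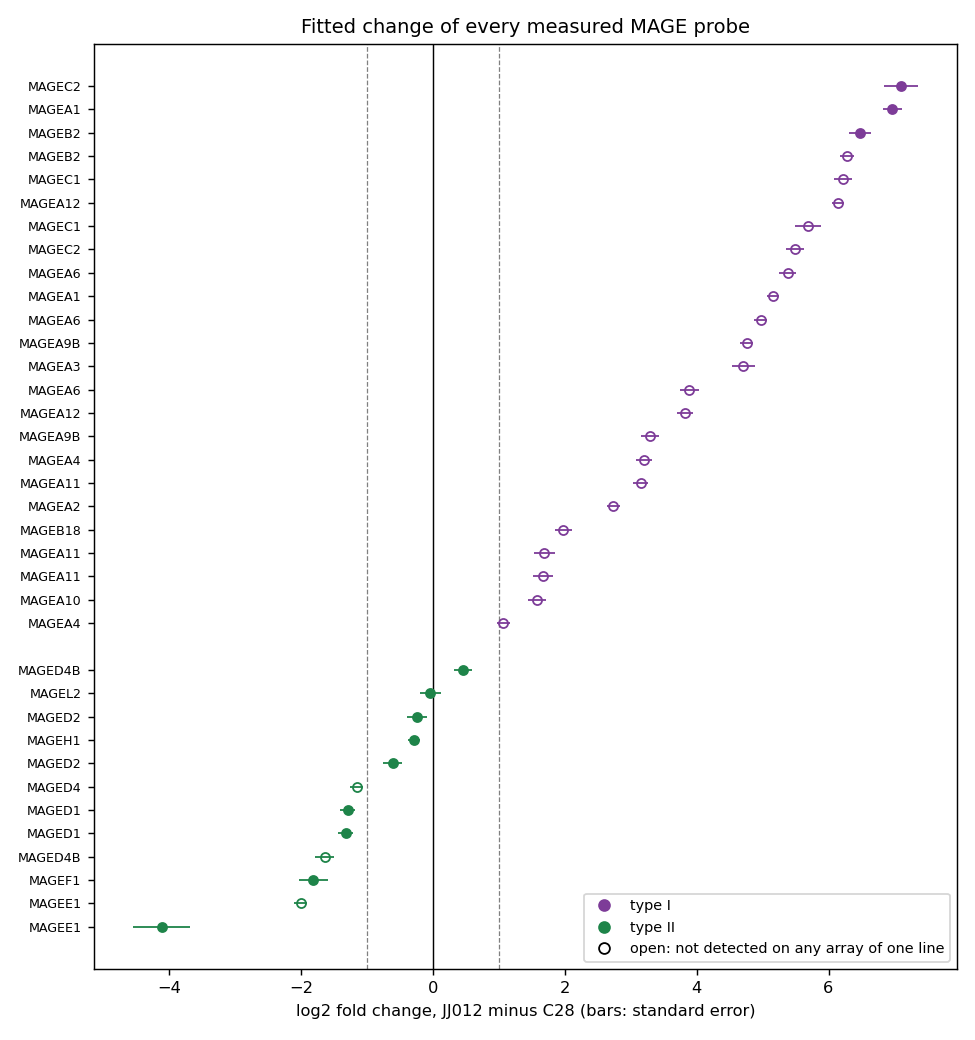
Fitted log2 change (JJ012 minus C28, bars standard error) of all 36 measured MAGE probes, type I above type II; dashed lines mark 2-fold, and open points were undetected on all arrays of a line. Type I probes range from 1.07 to 7.10 and type II probes from −4.11 to 0.46.

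Genes that work with the family were then read. Of 9 measured binding partners 1 was called higher and 1 lower in JJ012, where 13.7% of all measured genes were higher and 17.6% lower. TRIM27, a ubiquitin ligase, read 8.89, 8.68 and 8.88 in JJ012, against 7.96, 7.76 and 7.70 in C28 (1.01, SE 0.11, adjusted p = 8.89e-05), at the edge of the 2-fold limit. The call was lost in 9 of 18 alternatives, among them 0.84 without background correction, 0.97 without JJ012 replicate 1 and 0.96 without C28 replicate 3. PJA1, a ubiquitin ligase bound by MAGED1, read 5.07, 4.51 and 4.71 in JJ012, against 8.49, 8.56 and 8.37 in C28, at least 6.88-fold lower. PJA1 entered through C28 alone, so the filter set its direction. TRIM28 changed by 0.40 and was not called. Of the family's relatives with other names, NSMCE3 changed by −0.52 and TRO by 0.60, and neither was called. In the SMC5/6 complex, which NSMCE3 belongs to, SLF1 was higher by 1.29 and SLF2 fell by 1.15 among 6 measured genes. Beside the same all-gene shares, these counts are not read as a result. The SLF1 call was lost with the mean of its probes (0.11).

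Among 10 measured genes of DNA methylation and CTCF, 2 were higher and 1 lower, where 13.7% of all measured genes were higher and 17.6% lower. CTCFL entered through JJ012 alone and TET1 through C28 alone, so the filter set their direction. CTCFL, a testis paralogue of CTCF that is itself a cancer-testis gene, read 10.69, 10.94 and 10.91 in JJ012, against 4.47, 4.71 and 4.52 in C28, at least 41.3-fold higher (adjusted p = 2.5e-08). DNMT3B, a de novo DNA methyltransferase, was higher by 1.64 (adjusted p = 1.63e-05). TET1, which oxidises methylcytosine, was at least 2.67-fold lower. The maintenance genes DNMT1 (0.38) and UHRF1 (−0.64) were not called.

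Of 91 RefSeq neighbours of MAGE genes, 27 were on the array and 13 were measured, with 4 higher and 2 lower. Over all measured genes 13.7% were higher and 17.6% lower. The 4 higher neighbours were detected on no C28 array. Every gene given in this paragraph with a fold bound entered through 1 line alone, so the filter set its direction. The count of neighbours therefore supports nothing by itself. SPANXD, a sperm protein gene beside MAGEC1, read 10.38, 10.26 and 10.30 in JJ012, against 4.64, 4.71 and 4.58 in C28, at least 28.5-fold higher. CSAG3 and CSAG1, which lie among MAGEA12, MAGEA2 and MAGEA6, were at least 8.28- and 4.96-fold higher. MKRN3, an imprinted gene beside MAGEL2, was at least 3.99-fold higher while MAGEL2 was not called. CETN2, beside MAGEA6, fell by 1.37, and EPHB3, beside MAGEF1, was at least 1.42-fold lower, a call lost without background correction (−0.77). Of 9 germ cell markers 1, TEX101, was measured and was at least 3.58-fold higher in JJ012. DDX4, DAZL, SYCP1, SYCP3, PRM1, PRM2, TNP1 and PIWIL1 were detected on no array. Of the chondrocyte markers, MATN3 was at least 3.24-fold lower in JJ012 and SOX9 (−0.53) was not called. Among markers of other cell types, PECAM1, an endothelial gene, was at least 1.67-fold higher and EPCAM, an epithelial gene, was called lower (−1.98 fitted over all arrays); JJ012 detected it on replicate 1 alone, and without that array it was at least 3.51-fold lower. PECAM1 lost its call without background correction (0.82), and PTPRC, CDH5, CDH1, RBFOX3 and SYT1 were not measured. Their part in the MAGE values was not tested.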

How the data were processed

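Per the labels, biotin-labelled cRNA of each sample was hybridised to Illumina arrays. The authors deposited a table of probe intensity values with a detection p-value column, stored as 1 minus p, and normalized log2 values with each probe centred on its median, used as an alternative. The scanner and software are not given in the sources used here. From the intensities, background correction and quantile normalization were done with limma 3.58.1 neqc in R 4.3.3 (offset 16), taking the negative controls' spread from the detection column. A linear model with 1 coefficient per line and moderated statistics was fitted over 19384 measured probes, two-sided, with Benjamini-Hochberg adjustment over all of them; the same calculation was tested on simulated data. Platform symbols were matched to RefSeq by Entrez identifier (65 of 65 MAGE probes), and promoter windows came from RefSeq, GRCh38.p14. A gene was read by its measured probe of highest mean signal. Named are all measured genes of the family and, from each list, those called. Some uncalled list genes were also named by choice: TRIM28, NSMCE3, TRO, DNMT1, UHRF1 and SOX9. Uncalled genes passed over include EHMT2 (0.83) and VPS35 (−0.64). The members and lists were chosen with earlier results of these data known. Replicate numbers did not pair the arrays (correlations of same-numbered deviations −0.0356, −0.0734 and 0.053). The number of arrays limits the precision. 18 alternatives were tried.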

Additional observations from a re-analysis of the deposited data

How the results depend on the processing

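The repeats do not test direction for the 13 measured type I genes, MAGED4 and MAGEE1, because the filter set it on entry. Using 1 probe per gene and the replicate block left the fold changes unchanged by construction. The authors' values gave nearly the same changes as no background correction. MAGE gene results kept direction and side of the threshold in 353 of 363 repeats, a count therefore largely set in advance. In 4 the sign turned, each time for a gene that was not called in either fit: MAGED4B was −0.59 with the mean of a gene's probes (0.46 with its brighter probe, since its probes disagree), and MAGEL2, at −0.04 with all arrays, was 0.02 with array weights, 0.10 without JJ012 replicate 1 and 0.05 without C28 replicate 2 (−0.16 to 0.10 over the arrays left out). In 6 a call was lost: MAGEA10 (0.79, 0.85 and 0.79) and MAGED4 (−0.65, −0.70 and −0.65) without background correction, with normexp and with the authors' values; in that order the type I median was 3.37, 3.46 and 3.36, the type II median −0.57, −0.60 and −0.57, binding partners called higher 0 in each, and neighbours called lower 1 in each. Binding partners called higher were also 0 with median scaling and with cyclic loess, which left TRIM27 under 2-fold. Median scaling moved the median of all genes to −0.23, against −0.04, and calls over all genes to 1233 higher and 2503 lower, against 1574 and 2025; the type I median was 4.64. Without background correction all-gene calls were 1071 higher and 1391 lower. With no filter the medians were 1.78 for type I (24 genes) and −0.61 for type II (9 genes). Requiring detection on all arrays left 0 type I genes, so type I calls and MAGE probes called higher were 0 by construction; type II genes called lower were 2, their median −0.45, MAGE probes called lower 3, partners called lower 0, methylation and CTCF genes called higher 1 and lower 0, and neighbours called higher 0 and lower 1, and all-gene calls were 1014 higher and 1043 lower. With the mean of a gene's probes the SMC5/6 genes called higher were 0. Leaving out 1 array at a time, the type I median ranged from 4.71 to 4.88 and partners called higher from 0 to 1. With the replicate block, type I genes called higher were 13, type II genes called lower 4, and no call among these changed. Where no other cause is given, the cause was not tested. A block for the chip was not run, because the headers name none. Dim signals near background limit MAGEA10, MAGED4 and MAGEB18.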
